A study of Mus musculus with 3 samples.

Results

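SOX2 binding around Alcam, Lamb1 and Nedd4l was examined in gastric glands of mice, isolated from the antrum, the part of the stomach that leads to the duodenum. The 3 loci were chosen by their peak scores, because each holds a high-scoring peak of the wild-type SOX2 list with no overlapping peak in the Sox2 knockout list. All peaks of either list that overlapped a fixed window on the build mm9 were taken: chr16:52199000-52504000 for Alcam (305 kb), chr12:31900000-32065000 for Lamb1 (165 kb) and chr18:64997000-65428000 for Nedd4l (431 kb). The windows held 7 of the 7213 wild-type peaks and 1 of the 887 knockout peaks. SOX2 was precipitated with a goat antibody from cross-linked, sonicated chromatin, and there was 1 chromatin immunoprecipitation sequencing (ChIP-seq) library for each genotype. The knockout mice were Rosa26CreER; Sox2 fl/fl, with a tamoxifen-inducible Cre expressed from the broadly active Rosa26 locus. The wild-type mice were Rosa26WT; Sox2 fl/fl, so they also carried the loxP-flanked Sox2 alleles. Animals of both groups were of mixed C57BL/6 x 129 background, received tamoxifen at 8 weeks of age and were sampled 2 weeks later. How many animals went into each library is not stated in the labels. The input library, from wild-type glands, was not analysed here. With 1 library per genotype there was no replicate error and no test between genotypes, and the read depth behind each list was unknown.

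SOX2 is a high-mobility-group transcription factor that binds DNA in the minor groove at short AT-rich sites, and it is expressed in gastric epithelium and in many stem and progenitor cells. Much of its binding in other tissues lies in enhancers away from gene starts. Alcam encodes CD166, an immunoglobulin-family adhesion molecule at cell junctions that has been used as a marker of stem-like epithelial cells. Lamb1 encodes the laminin beta-1 chain, a subunit of the heterotrimeric laminins of basement membranes. Nedd4l encodes a HECT-type ubiquitin ligase of the NEDD4 family, known for removing the epithelial sodium channel from the cell surface.

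The sequence under each peak was not used here, because no mm9 genome was at hand. The promoters of Alcam and Lamb1 were at hand from RefSeq on another build, GRCm38.p6, and are shown because they are the regulatory sequence of these genes that could be read letter by letter for the SOX core motif. The motif searched was CAA preceded by a pair of bases that are each A or T and followed by A or T, on both strands, with overlapping matches counted. Each line gives the 250 bases before the annotated gene start, 5′ to 3′ on the gene's strand, with matches in capitals. On GRCm38.p6 the Alcam stretch is chr16:52453082-52453331 (minus strand) and the Lamb1 stretch is chr12:31265043-31265292 (plus strand).
Alcam: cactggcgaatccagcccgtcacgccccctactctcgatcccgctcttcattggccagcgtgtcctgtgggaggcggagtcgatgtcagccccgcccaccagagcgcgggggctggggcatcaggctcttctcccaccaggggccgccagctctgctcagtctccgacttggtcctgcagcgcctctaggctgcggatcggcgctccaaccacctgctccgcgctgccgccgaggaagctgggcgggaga
Lamb1: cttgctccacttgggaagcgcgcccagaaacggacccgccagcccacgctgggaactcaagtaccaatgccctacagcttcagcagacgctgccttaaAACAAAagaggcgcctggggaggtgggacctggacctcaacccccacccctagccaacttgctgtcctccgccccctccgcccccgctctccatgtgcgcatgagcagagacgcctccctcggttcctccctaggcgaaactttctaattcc
The Lamb1 promoter held 1 match, AACAAA, whose first base lies 152 bases before the start. The Alcam promoter held 0 matches. Of 32851 promoters of the same length in the table, 17262 (52.5%) held at least 1 match, so a match here is common. These letters describe the promoters and not the peaks: distances between peaks and gene starts were not measured, since the peaks are on mm9.

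Around Alcam wild-type glands gave 2 peaks and knockout glands 0. The leading peak lay at chr16:52438212-52438719, was 508 bp wide and scored 811.47. The other lay at chr16:52336322-52336748, 101 kb to the lower-coordinate side, was 427 bp wide and scored 80.02. The score is the value the authors' peak caller gave each peak, and it ranks peaks within a list. The window therefore held a peak ranked 30 of 7213 beside a peak ranked 3793, just below the list's median score of 82.62. The nearest knockout peak on the higher-coordinate side was 251 kb from the leading peak and outside the window, at chr16:52689651-52689955 with a score of 85.09. It overlapped a wild-type peak with a score of 262.79. On the lower-coordinate side the nearest knockout peak was 2859 kb away, with a score of 50.1.

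Around Lamb1 wild-type glands gave 2 peaks and knockout glands 1. The leading wild-type peak lay at chr12:31941298-31941857, was 560 bp wide and scored 723.22, rank 43. It was 41.3 kb inside the lower-coordinate edge of the window. The second wild-type peak, 36.5 kb to the higher-coordinate side at chr12:31978337-31978720, scored 322.28, rank 315. The knockout peak lay at chr12:31978432-31978737, overlapped this second peak by 289 bp and scored 62.29, rank 465 of 887. The Lamb1 window was thus the only one of the 3 with a knockout peak, and that peak coincided with the lower-scoring of its wild-type peaks. Another wild-type peak with a score of 170.24 stood outside the window, 61.5 kb to the lower-coordinate side of the leading peak. The nearest knockout peak on that side was 1039 kb from the leading peak and scored 137.04.

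Around Nedd4l wild-type glands gave 3 peaks and knockout glands 0. The leading peak lay at chr18:65230718-65231606, was 889 bp wide and scored 574.85, rank 90. Both other peaks lay on its lower-coordinate side. The nearer was 110 kb away at chr18:65120069-65120326 and scored 70.28, and the farther was 220 kb away at chr18:65009982-65010424 and scored 145.58. The next wild-type peak on the higher-coordinate side was 449 kb away, outside the window, with a score of 53.62. Knockout peaks were distant on both sides, at 885 kb with a score of 88.06 and at 2719 kb with a score of 104.38.

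**Figure D1:**
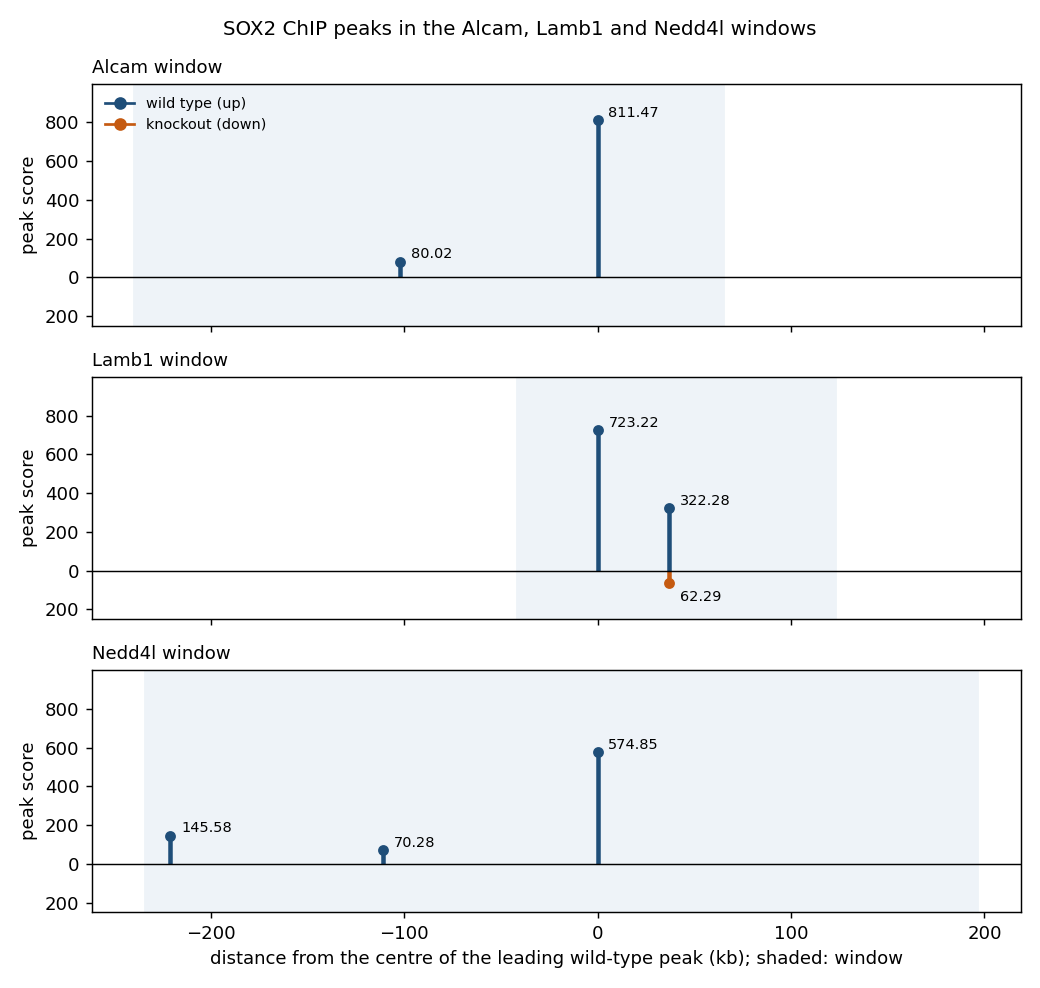
Score of each SOX2 ChIP peak (vertical axis, wild type upward and knockout downward) against its distance in kb from the centre of the leading wild-type peak, for the 3 windows (shaded). The leading peaks score 811.47, 723.22 and 574.85, and the only knockout peak, with a score of 62.29, sits under the Lamb1 peak with a score of 322.28.

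Among wild-type peaks without a knockout peak, the leading peaks of Alcam, Lamb1 and Nedd4l ranked 1, 2 and 8 by score, and this is the property they were chosen for. The next in order after the Lamb1 peak, on chromosome 11, scored 722.26. The Nedd4l peak stood between one on chromosome 1 with a score of 584.57 and another on chromosome 1 with a score of 543.04, neither of which is in the windows. All 29 wild-type peaks that scored higher than the Alcam peak overlapped a knockout peak. Of the 42 that scored higher than the Lamb1 peak 41 did so, and of the 89 above the Nedd4l peak 82 did so. These counts follow from the ranks of the leading peaks among all wild-type peaks and among those without a knockout peak. In the score range that these peaks span, 574.85 to 811.47, there were 58 other wild-type peaks, and 53 of them had a knockout partner. The chosen peaks set this range and are left out of the count. The share is thus a description of the other peaks and no measure of how unusual the chosen ones are. The partners scored from 52.96 to 311.8, with a median of 94.89. The lowest of these is close to the lowest score in the knockout list, 50.02, so a missing knockout peak says only that no peak reached that list.

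The 4 wild-type peaks of the windows other than the leading ones varied in score from 70.28 to 322.28, and 2 of them were above the median of the whole list. A knockout peak was missing at 3 of the 4 (exact Clopper-Pearson 95% interval of the share 19.4% to 99.4%). Over all 7213 wild-type peaks the share was 91.8%. An interval from 4 peaks is too wide to tell the shares apart. The share also varied with score: of the 118 wild-type peaks that scored 500 or more, 106 did have a knockout peak. These intervals describe counting error alone: neighbouring peaks of 1 library do not replicate each other.

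The shared Lamb1 peak can be set beside peaks of like score. Of 329 wild-type peaks with a score within 1.25-fold of 322.28, 129 (39.2%, 33.9 to 44.7) overlapped a knockout peak. The 130 knockout peaks that overlapped them had a median score of 72.21 and quartiles of 62.48 and 94.62. The Lamb1 knockout peak, at 62.29, was near the lower quartile, with 31 of the 130 below it. Scores of different libraries move with depth, so the values are given side by side and not as a fold change.

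**Figure D2:**
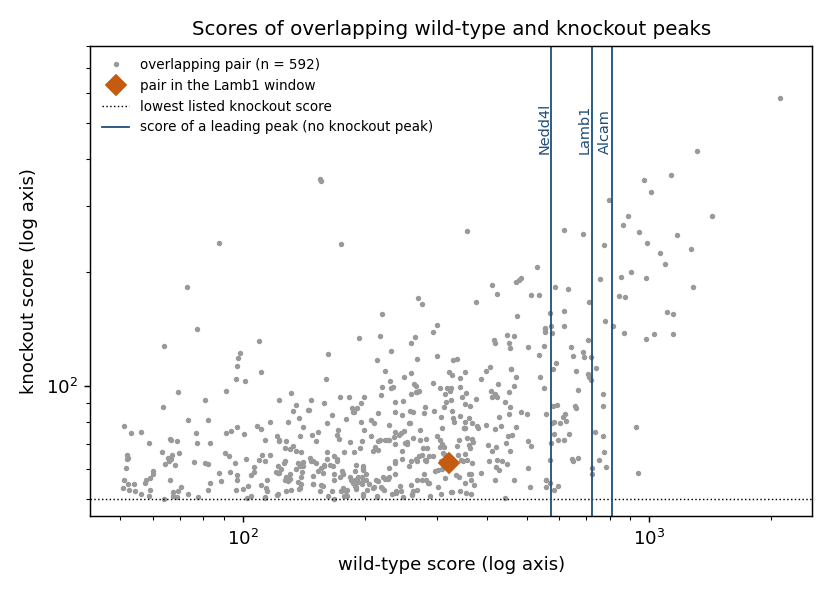
Knockout score against wild-type score (both log axes) for the 592 overlapping pairs of peaks, with the pair in the Lamb1 window as a diamond. Vertical lines give the scores of the 3 leading peaks, which were chosen for having no pair. The Lamb1 pair (322.28 and 62.29) lies in the lower part of the cloud, and the vertical lines cross a range of scores in which other peaks do have partners.

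The number of peaks per window was compared with every non-overlapping window of the same size, laid over the stretch that the peaks span on each of the 19 autosomes and on chromosome X. At least 2 wild-type peaks were found in 21.2% of 8339 windows of 305 kb, the size of the Alcam window. For Lamb1, at least 2 were found in 11.4% of 15422 windows of 165 kb, and for Nedd4l at least 3 in 18.3% of 5895 windows of 431 kb. With a score of at least 100, the Alcam window kept 1 peak and the Lamb1 and Nedd4l windows each kept 2. The share with at least as many was then 22.2% for Alcam, 3.27% for Lamb1 and 11.4% for Nedd4l. The median window of each size held 0 wild-type peaks. No knockout peak was found in 91.3% of windows of the Alcam size and in 87.9% of those of the Nedd4l size, and in 95.0% of those of the Lamb1 size. Nothing is read from these shares about the named windows, which were chosen for a strong peak without a knockout peak, while most windows of each size held no wild-type peak at all. Among windows with exactly as many wild-type peaks, a knockout peak was missing in 647 of 775 (83.5%, 80.7 to 86.0) for Alcam and in 313 of 427 (73.3%, 68.8 to 77.4) for Nedd4l. For Lamb1 this was so in 836 of 1003 (83.3%, 80.9 to 85.6).

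**Figure D3:**
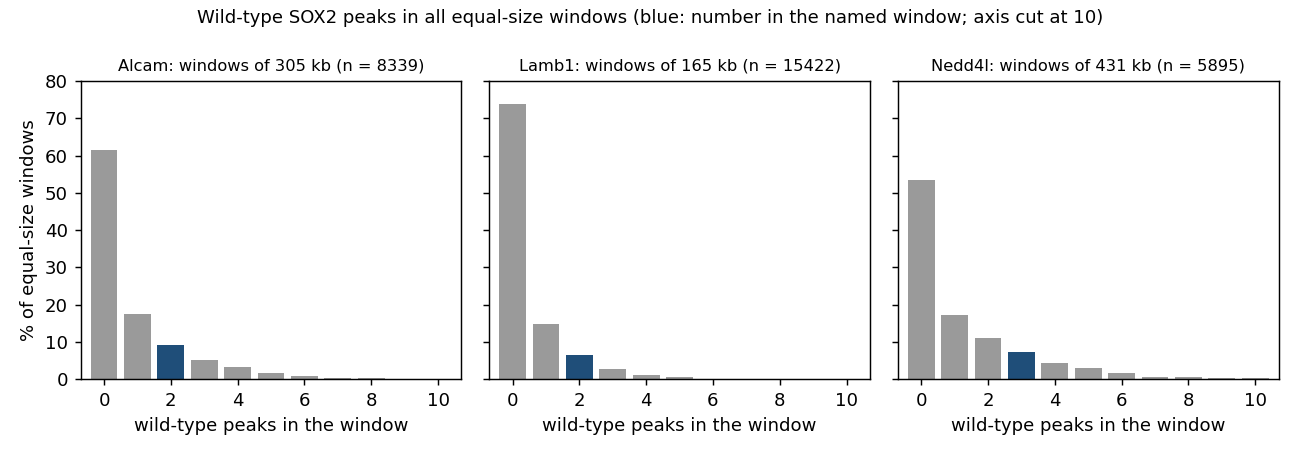
Percentage of equal-size windows (vertical axis) by the number of wild-type SOX2 peaks they hold (horizontal axis, cut at 10), for the sizes of the Alcam, Lamb1 and Nedd4l windows, with the bar of the named window's own number in blue. Most windows hold 0 peaks (61.4%, 73.8% and 53.3%), and the named windows, with 2, 2 and 3 peaks, lie to the right of the highest bar.

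Each of these windows was bound to hold at least 1 peak, because it was chosen for holding a strong one. The same window was therefore also laid, at the same offset, around each of the 116 other wild-type peaks on these chromosomes that scored 500 or more. Around Alcam there was 1 further wild-type peak, and 99 of the 116 (85.3%, 77.6 to 91.2) had at least as many, with a median of 2. Around Lamb1 there was also 1, and 83 (71.6%, 62.4 to 79.5) had at least as many, with a median of 1. Around Nedd4l there were 2, and 86 (74.1%, 65.2 to 81.8) had at least as many, with a median of 4. The Alcam and Nedd4l counts were thus below the median of other strong sites, and the Lamb1 count was at it. These shares include windows with the same number, and each locus is a single window. Windows around neighbouring strong peaks can overlap and count the same peaks, while the intervals treat the 116 as independent and may be too narrow. Knockout peaks other than a partner of the strong peak occurred in 28 (24.1%), 24 (20.7%) and 45 (38.8%) of the 116 windows of the Alcam, Lamb1 and Nedd4l sizes. Only the Lamb1 window of the 3 had one.

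The distance from a leading peak to its nearest wild-type neighbour was 101 kb for Alcam, 36.5 kb for Lamb1 and 110 kb for Nedd4l. Over all 7211 wild-type peaks with a neighbour on their chromosome the median was 34.7 kb, with quartiles of 7.89 and 107 kb. The Alcam and Nedd4l peaks thus lay near or just past the upper quartile, and the Lamb1 peak lay near the median. The 12 wild-type peaks of at least 500 without a knockout peak, which include these 3, had nearest neighbours from 0.025 to 254 kb away. Their median was 15.0 kb, with quartiles of 1.79 and 102 kb. For all 118 wild-type peaks of at least 500 the median was 26.3 kb, with quartiles of 8.13 and 88.9 kb.

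The leading peaks also differed in width. The Nedd4l peak, at 889 bp, was exceeded in width by 4 of the 118 wild-type peaks that scored 500 or more. The Alcam peak, at 508 bp, and the Lamb1 peak, at 560 bp, were narrower than the median of that set, 577 bp. Peaks of that set had a median width of 574.5 bp with a knockout peak (106 peaks) and 599.5 bp without (12 peaks, from 429 to 889 bp). The widths of the 3 leading peaks thus spread over most of the range of that class.

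**Figure D4:**
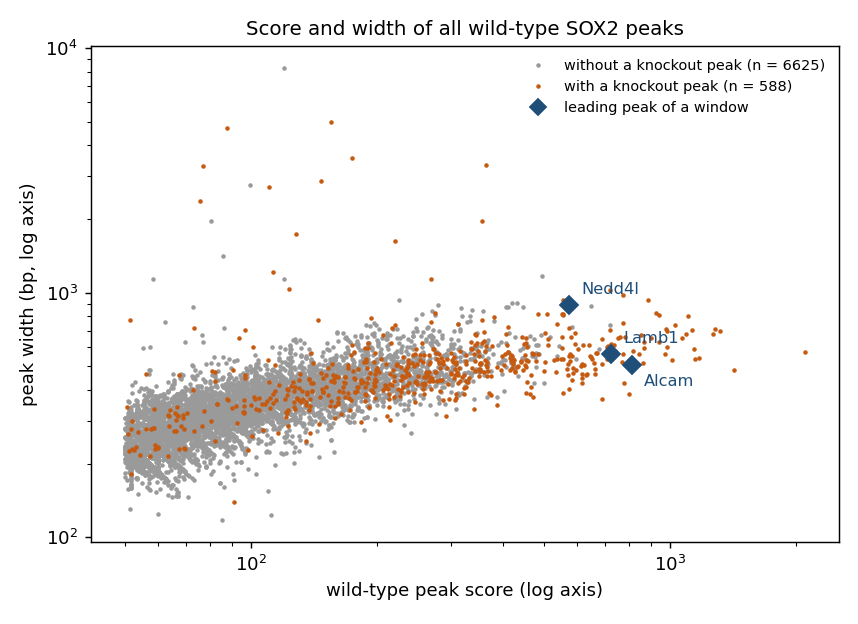
Width in bp against score (both log axes) of all wild-type SOX2 peaks, with the leading peaks of the 3 windows as diamonds and peaks with a knockout peak in orange. The Nedd4l peak (889 bp) lies along the upper edge of peaks of its score, while the Alcam (508 bp) and Lamb1 (560 bp) peaks lie inside the cloud.

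The windows are named for 1 gene each but can hold parts of others. In the RefSeq gene table of GRCm38.p6, used for gene order only, the neighbouring protein-coding genes are Cblb and Zpld1 for Alcam, Fam110c and Dld for Lamb1, and Atp8b1 and Alpk2 for Nedd4l. Whether a peak lies in an exon, an intron or between genes was not determined, and no peak was assigned to a gene.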

How the data were processed

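The submitters' processing notes name Bowtie2, MACS and the build mm9. Tool versions, settings and the control used in peak calling are not stated there or in the labels. The authors deposited 1 peak list per ChIP library, with positions and a peak score whose scale is not named. Scores began at 50 (wild type) and 50.02 (knockout).

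Windows were taken as given, and a peak counted when it overlapped one by at least 1 bp. The planned comparison with randomly drawn windows was replaced by all equal-size windows, which need no draw. Counting was tested on simulated data against bedtools 2.31.1. Shares have exact Clopper-Pearson 95% intervals. Every peak in a window was named, as each held at most 10 wild-type peaks, with the nearest peaks outside. The loci, windows and gene lists were chosen with earlier results of these data known. The planned list of related laminin, adhesion and ubiquitin ligase genes was not used, because no annotation of the build was at hand. Promoters were read for 2 of the 3 genes. The promoter sequences at hand held no entry for Nedd4l, and chromosome 18, which holds this gene, was left out of that step. Alternatives were the score limit, window edges, overlap rule, tiling, chromosomes and list length. Positions are 1-based. Computation used Python 3.11.15 with SciPy 1.17.1, NumPy 2.4.6, matplotlib 3.10.9 and pandas 2.3.3.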

Additional observations from a re-analysis of the deposited data

How the results depend on the processing

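Of 51 alternatives over 12 values (wild-type, knockout and wild-type-only counts and the share of equal-size windows, for each locus), 35 left a count within 1.5 times or a share within its counting interval, and 16 did not. The Alcam and Nedd4l windows had 0 knockout peaks under each score limit and window edge run. A score limit, a narrower window or a whole-peak rule can only remove peaks, so those runs could not change a count of 0. They are nevertheless among the 35. Only windows widened by 50 kb on each side could have added a knockout peak, and they added none. With a score of at least 100, Alcam kept 1 wild-type peak, which was also its 1 wild-type-only peak. With as many top wild-type peaks as knockout peaks, Alcam had 1 wild-type and 1 wild-type-only peak, and so did Nedd4l. For Lamb1, windows narrowed by 50 kb on each side held 1 wild-type peak, because the leading peak fell outside. A score of at least 100 left it 0 knockout peaks and raised its wild-type-only peaks to 2, because the knockout peak of 62.29 was removed. The share of equal-size windows with at least as many wild-type peaks was 22.6% for Alcam, 12.1% for Lamb1 and 19.5% for Nedd4l on the autosomes only, and 22.2%, 3.27% and 11.4% with a score of at least 100, where the windows' own counts were 1, 2 and 2. On its own chromosome only, it was 20.0% for Nedd4l. The settings by list length and own chromosome were added after the data were seen. No replicate could be left out, and no paired analysis was possible because each genotype had 1 library. Because the read depth is unknown, no count or score can be compared between genotypes on an equal footing.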
